A study of Mus musculus with 18 samples.

Results

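Padi4 and Padi2, genes of the peptidylarginine deiminase (PAD) family, were followed in splenic neutrophils of lupus-prone mice at 3 ages. Both rows were found by gene symbol among the 17941 rows of the deposited count table, so 2 of 17941 genes are described here, beside 96 other counted genes of extracellular trap formation. PAD enzymes use calcium to convert arginine residues of proteins to citrulline. PAD4, the product of Padi4, is known for entering the nucleus of neutrophils and citrullinating histones, which loosens chromatin. That step is part of the release of neutrophil extracellular traps, webs of DNA that carry granule proteins, and trap components are known targets of autoantibodies in lupus. PAD2, the product of Padi2, is a widely expressed relative known from brain, muscle, macrophages and mast cells.

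The animals were female mice of strain NZBWF1J, an F1 hybrid of NZB and NZW mice that develops a lupus-like kidney disease with age. The labels separate them by age alone, at 14, 20 and 26 weeks, with 6 biological replicates each, taken here as 1 mouse per library, and none was treated. All 18 samples came from spleen and were sorted by flow cytometry as single cells that excluded DAPI and carried Ly6B, CD11b and Ly6G with intermediate Ly6C. The series has no other strain, so age cannot be told apart from disease stage. Values are read counts from low-input RNA sequencing, scaled to counts per 1000000 (CPM).

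Both genes lie in the PAD cluster on chromosome 4 (GRCm38, GENCODE M21 gene models). Padi4 spans 140745865 to 140774236 on the minus strand and Padi2 spans 140906344 to 140952586 on the plus strand. Padi3 (140785365 to 140810648) and Padi1 (140812983 to 140845778), both on the minus strand, lie between them. The promoters are shown because these neighbours differed widely in level. Each line is the stretch from 250 to 26 bases before the start of the gene in RefSeq's GRCm38.p6 table, written in the direction of transcription. Capitals mark TATAAA (the TATA box), TGANTCA (bound by AP-1 factors), GGGCGG (the GC box of Sp1) and CCAAT (bound by NF-Y), each searched on both strands.
Padi4, chr4:140774229-140774453, minus strand: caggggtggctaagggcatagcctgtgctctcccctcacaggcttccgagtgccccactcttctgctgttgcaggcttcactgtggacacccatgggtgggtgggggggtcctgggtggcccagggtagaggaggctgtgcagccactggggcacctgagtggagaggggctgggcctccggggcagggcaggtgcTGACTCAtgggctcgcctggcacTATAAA
Padi2, chr4:140906110-140906334, plus strand: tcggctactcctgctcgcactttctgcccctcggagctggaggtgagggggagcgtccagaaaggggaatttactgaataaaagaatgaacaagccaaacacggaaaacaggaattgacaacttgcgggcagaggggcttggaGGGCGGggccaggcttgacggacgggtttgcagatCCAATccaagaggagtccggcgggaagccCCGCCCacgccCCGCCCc

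The Padi4 stretch held 1 TATAAA, at 31 to 26 bases before the RefSeq start, and 1 TGACTCA, at 54 to 48 bases. It had neither GGGCGG nor CCAAT, and 3 CpG dinucleotides. The Padi2 stretch held 3 GC boxes, 1 CCAAT and 14 CpG dinucleotides, and neither TATAAA nor TGANTCA. Among the 32851 promoter stretches of the same length, 10.6% held TATAAA, 6.24% TGANTCA, 29.2% GGGCGG and 31.6% CCAAT, and the median CpG number was 5. The GENCODE span of Padi4 reaches 140774236, past the lowest position of its stretch (140774229), so the 2 sources differ on the start. The TATAAA lies inside the GENCODE span, and its distance holds for the RefSeq start only. A match is a run of letters and was not tested for binding.

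Libraries held 5546624 to 17256379 counts, and 10104 genes passed the filter on low counts. All 8 neutrophil markers looked at (S100a8, S100a9, Ly6g, Itgam, Csf3r, Cxcr2, Mmp8 and Retnlg) had counts at every age. Their summed level was 43400 to 54900 CPM at 14 weeks, 16700 to 30900 CPM at 20 weeks and 36400 to 140000 CPM at 26 weeks. The summed level of 8 monocyte and macrophage markers was 105 to 363 CPM, 360 to 807 CPM and 103 to 298 CPM at those ages, with C1qa at 0 counts in every library of 14 and 26 weeks. Plasma cell markers summed to 129 to 186 CPM, 341 to 2080 CPM and 184 to 689 CPM. In sorted bulk samples such as these, fewer cells of a type and less RNA per cell cannot be told apart.

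Padi4 was abundant at 14 weeks and lower at both later ages. It was measured at 771 CPM in the lowest of the 14 week libraries, 832 CPM at the median and 1180 CPM in the highest. At 20 weeks the lowest, median and highest libraries had 301, 477 and 981 CPM, and at 26 weeks 325, 488 and 853 CPM. At each later age 5 of 6 libraries lay below the lowest 14 week library. The exceptions were replicate 1 of 20 weeks (981 CPM) and replicate 4 of 26 weeks (853 CPM), which lay inside the range of the 14 week mice, so the groups overlapped through those libraries.

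Mean Padi4 levels were 895 ± 151 CPM at 14 weeks, 515 ± 245 CPM at 20 weeks and 513 ± 182 CPM at 26 weeks (SD, n = 6 mice each). The log2 fold change by edgeR's quasi-likelihood test was -0.80 ± 0.25 (SE) for 20 against 14 weeks, with Benjamini-Hochberg adjusted p = 0.0496. It was -0.80 ± 0.25 for 26 against 14 weeks (adjusted p = 0.0455 by the same edgeR test). For these pairs 5.27% and 5.54% of the tested genes were called lower, so Padi4 was 1 of 532 and 1 of 560 such genes. The 2 later ages did not differ beyond their spread (-0.01 ± 0.25, edgeR adjusted p = 0.992). The edgeR test of any change with age gave adjusted p = 0.0265, and 23.0% of the tested genes had an adjusted p under 0.05 in it. This call was lost in 6 of the 18 fits without 1 library (replicates 1 and 3 of 14 weeks and 1, 2, 5 and 6 of 26 weeks, adjusted p up to 0.0924).

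An exact permutation test (two-sided) on log2 CPM uses no model of the spread, though its values were scaled by library totals and factors taken after the filter. It gave a difference of -0.90 for 20 against 14 weeks (exact permutation p = 0.013, adjusted over the 3 pairs of ages 0.0195). For 26 against 14 weeks the difference was -0.85 (exact permutation p = 0.0108, adjusted 0.0195), and for 26 against 20 weeks 0.04 (exact p = 0.896). These calls held in each of the 18 repeats that left out 1 library (adjusted exact p up to 0.0357). Leaving out a library of the age outside a pair could not change its difference, since the test uses only the ages compared. The edgeR p was adjusted over 10104 genes and the permutation p over the 3 pairs of ages, so their calls are not at a like threshold. The edgeR call of 20 against 14 weeks was lost in 16 of 18 fits without 1 library (adjusted p up to 0.133). That of 26 against 14 weeks was lost in 13 (edgeR adjusted p up to 0.135). Fold changes in these fits ran from -1.09 to -0.68 and from -1.01 to -0.68. Without replicate 1 of 20 weeks the change to 20 weeks was -1.09 (edgeR adjusted p = 0.0025), and without replicate 4 of 26 weeks the change to 26 weeks was -1.01 (edgeR adjusted p = 0.00772). The same 14 week mice were used in both comparisons.

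**Figure D1:**
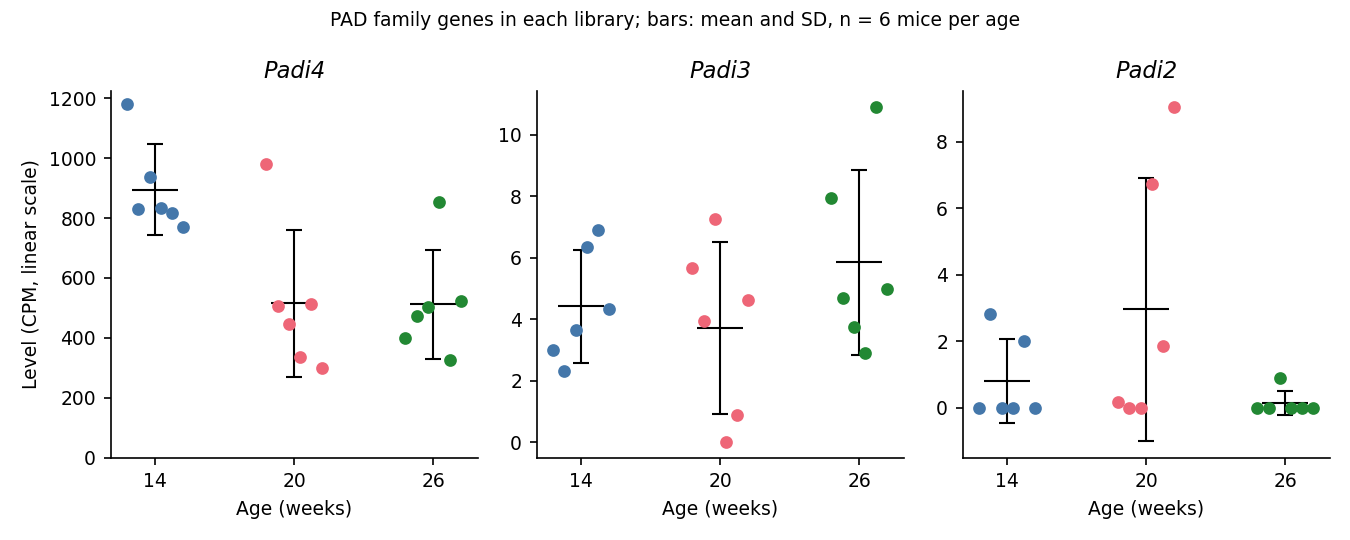
Levels of Padi4, Padi3 and Padi2 (vertical axes, CPM on linear scales that differ between panels) against age in weeks. Each point is 1 library, and horizontal and vertical bars show the mean and SD of 6 mice. In the Padi4 panel 5 of 6 libraries of each later age sit below the lowest 14 week library (771 CPM), and most Padi2 points lie at 0.

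The spread of Padi4 among mice of 20 and 26 weeks was larger with those libraries than without them. The coefficient of variation was 16.9% at 14 weeks, 47.6% at 20 weeks and 35.4% at 26 weeks, and the SD of log2 CPM was 0.22, 0.60 and 0.47. Without replicate 1 of 20 weeks the coefficient at that age was 23.1%, and without replicate 4 of 26 weeks it was 18.3%. Leaving out the highest library of an age tends to lower its coefficient, and the 14 week group kept its own (replicate 1, 1180 CPM). These values therefore do not show that the ages were alike in spread apart from those libraries. Differences in spread between ages were not tested. Ranked by raw counts among all genes of a library, Padi4 stood between places 118 and 191 at 14 weeks. It stood between 133 and 530 at 20 weeks and between 143 and 398 at 26 weeks. Its lowest count in any library was 1553, so the counting error of reads was small beside the differences between mice. Counts lack molecular identifiers, so the error from the number of molecules sampled was not measured.

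Monocyte and macrophage markers moved with age over part of the same course. Of 2 tested markers of that list, 2 were called higher at 20 than at 14 weeks and 0 lower. At 26 weeks 0 of the 2 were called against 14 weeks, and the summed level of all 8 listed (103 to 298 CPM) lay within or just below the 14 week range (105 to 363 CPM), while Padi4 was as low as at 20 weeks. Plasma cell markers were called higher at both later ages, 3 of 3 tested each time. Of the 8 neutrophil markers, 6 were called lower and 1 higher at 20 weeks, and 3 lower and 3 higher at 26 weeks, both against 14 weeks. Among all tested genes 5.27% were called lower and 4.93% higher at 20 weeks, and 5.54% lower and 5.45% higher at 26 weeks. The part of the markers in the Padi4 result was not tested beyond these values.

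Padi2 was at the limit of detection. Of 18 libraries 11 had 0 Padi2 counts, which allows a level of up to 0.22 to 0.629 CPM depending on the library (3 counts, for counting error only). The 7 libraries with counts were uneven. At 14 weeks replicates 2 and 5 had 33 and 21 counts. At 20 weeks replicates 1, 4, 5 and 6 had 2, 72, 19 and 90 counts, and at 26 weeks replicate 3 alone had any, 16 counts.

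Mean Padi2 levels were 0.806 ± 1.27 CPM at 14 weeks, 2.96 ± 3.94 CPM at 20 weeks and 0.151 ± 0.37 CPM at 26 weeks (SD, n = 6). Every SD was larger than its mean, and Padi2 did not pass the filter on low counts. Exact permutation tests (two-sided) on log2 CPM gave adjusted p = 0.455 for each later age against 14 weeks and 0.318 between the later ages. When edgeR was run without a filter, the adjusted p of any change with age was 0.224. No difference in Padi2 between ages was detected. Replicates 4 and 6 of 20 weeks, with the highest Padi2 (6.72 and 9.04 CPM), had the lowest Padi4 of that age (338 and 301 CPM) and the highest monocyte and macrophage sums of the series (807 and 767 CPM). This coincidence was noticed after the values were seen and was not tested.

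The antisense gene Gm13031 overlaps Padi2 over 4921 bases at its 3′ end. No source used here states whether counting used strand, and reads of the pair cannot be told apart there. In replicate 3 of 26 weeks Padi2 and Gm13031 had the same count (16). In the other 6 libraries with Padi2 reads Gm13031 had 0 to 4 counts. The Padi2 value at 26 weeks therefore rests on a single library in which both rows are equal. Padi1 and the overlapping transcript Gm13032 were equal in that library too, at 14 counts each.

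The other PAD genes were low as well. Padi3, best known from hair follicles, was counted in 17 of 18 libraries at 4.43 ± 1.84, 3.73 ± 2.8 and 5.86 ± 3 CPM (SD, n = 6) at the 3 ages, with no call between any of them (lowest edgeR adjusted p = 0.631). Padi1, an epidermal enzyme, had 41 counts over all libraries, in 5 of them. Per kilobase of exon, mean Padi4 stood at 185, 106 and 106 CPM at 14, 20 and 26 weeks, Padi3 at 1.29, 1.08 and 1.7 CPM and Padi2 at 0.161, 0.591 and 0.0302 CPM. Padi4 took 95.7% to 99.7% of all PAD counts of a library. Padi3 was the other PAD gene tested and was not called, so the measured fall in PAD transcripts lay in Padi4.

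None of the tested genes around the cluster was called lower at a later age. On the side of Padi4, Rcc2, a chromatin regulator gene, was not called in any pair of ages (lowest edgeR adjusted p = 0.35, with SEs of 1.21 to 1.25), and neither was Aldh4a1, farther out, which encodes a mitochondrial dehydrogenase (lowest edgeR adjusted p = 0.354). On the side of Padi2, Sdhb, a subunit gene of respiratory complex II, was measured at 89.8 ± 10.2, 102 ± 18.6 and 148 ± 39 CPM at the 3 ages. It was higher at 26 than at 14 weeks (log2 0.72 ± 0.17, edgeR adjusted p = 0.0108), opposite in sign to Padi4. Atp13a2, a lysosomal transporter gene next to it, was not called (lowest edgeR adjusted p = 0.556).

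Genes with a pattern like that of Padi4 were ranked by Pearson correlation of log2 CPM over the 18 libraries, among 4221 genes whose log2 CPM averaged 4 or more. The libraries share age groups and differ in depth. By Padi4 level they lie in separate clumps, the 14 week mice with replicate 1 of 20 weeks and replicate 4 of 26 weeks apart from the rest. Whether those libraries resemble 14 week mice across all genes was not tested. These correlations describe the pattern and carry no test. The highest belonged to Fermt3 (r = 0.94), which encodes the integrin activator kindlin-3, and Hk3 (0.93), a hexokinase gene. Then came Orai2 (0.91), a calcium channel subunit gene, Stxbp2 (0.91), which encodes a protein of granule exocytosis, and Map2k1 (0.91), the MEK1 kinase gene. The median over all genes compared was 0.13. Of these 5 genes 2, Orai2 and Map2k1, were on the list of trap formation genes. With the mean of each age subtracted, which leaves the differences between mice of an age, the highest were Aldh2 (0.91), Fermt3 (0.89), Arhgef1 (0.88), Tiam2 (0.86) and Cd177 (0.86), the last a neutrophil surface protein gene. Without the 2 libraries just named, over 16, these values were 0.80, 0.78, 0.69, 0.67 and 0.78, beside a median of 0.02 over all genes.

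Fermt3 itself was measured at 375 ± 23.9, 248 ± 76.1 and 260 ± 63.4 CPM (SD, n = 6) at 14, 20 and 26 weeks. It reached 376 CPM in replicate 1 of 20 weeks and 348 CPM in replicate 4 of 26 weeks, the libraries in which Padi4 was high. Orai2 was measured at 96.2 ± 17.2, 56 ± 17.1 and 60.1 ± 16.2 CPM, with 77.5 and 92.6 CPM in those libraries, each the highest of its age. Map2k1 fell from 200 ± 26.4 to 126 ± 20 and 137 ± 24.5 CPM (log2 -0.66 ± 0.14 and -0.55 ± 0.14, edgeR adjusted p = 0.00581 and 0.0189). The second of these calls was lost in 4 of the 18 fits without 1 library (adjusted p up to 0.0736, without replicate 1 of 26 weeks) and in the fit with no filter, and both were lost with the gene length correction (0.209 for the second).

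The most opposite patterns were those of Tctex1d2 (r = -0.91), Rabac1 (-0.90) and the nuclear long noncoding RNA Malat1 (-0.89). Malat1 rose from 634 ± 112 CPM at 14 weeks to 2070 ± 783 CPM at 20 weeks (log2 1.70 ± 0.28, edgeR adjusted p = 0.000929) and 1750 ± 630 CPM at 26 weeks (1.46 ± 0.28, edgeR adjusted p = 0.00329). Replicate 1 of 20 weeks and replicate 4 of 26 weeks had the lowest Malat1 of their ages, 923 and 637 CPM. The other libraries of those ages ran from 1720 to 3320 CPM and from 1350 to 2200 CPM. The same libraries therefore stood apart for Malat1 and for Padi4. With age means subtracted r was -0.77 over 18 libraries and -0.28 without these 2, so the relation within an age rests on them.

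**Figure D2:**
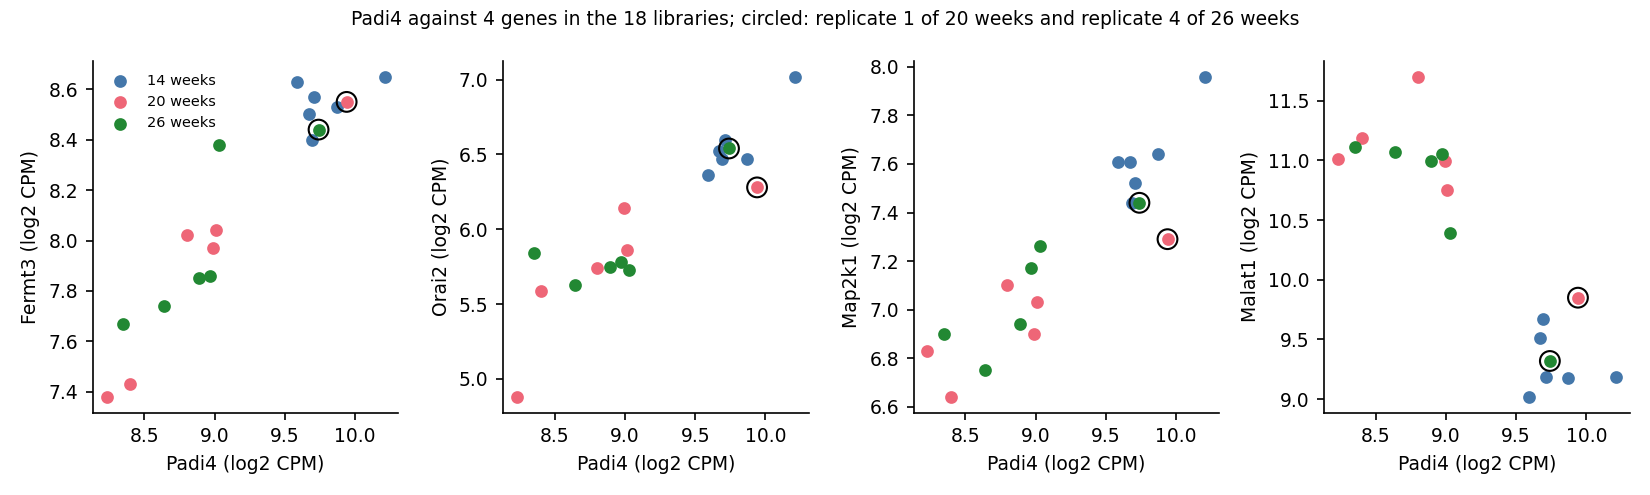
Log2 CPM of Padi4 (horizontal axes) against Fermt3, Orai2, Map2k1 and Malat1 (vertical axes), with 1 point per library coloured by age. The circled libraries, replicate 1 of 20 weeks and replicate 4 of 26 weeks, lie with or near the 14 week mice in each panel.

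The trap formation list held 105 genes in 11 roles. Of these 98 had a row and 86 were tested, Padi4 among them. Between 14 and 20 weeks 9 rose and 22 fell (4.93% and 5.27% of all tested genes did), with a median log2 change of -0.23 beside -0.02 over all genes. Between 14 and 26 weeks 7 rose and 18 fell (5.45% and 5.54% of all tested genes), with a median of -0.12 beside 0.04. Between 20 and 26 weeks 16 rose and 15 fell (8.03% and 7.98% of all tested genes), with a median of -0.05 beside 0.05. The correction for gene length, 1 of the alternatives, left 14, 4 and 32 genes called in the 3 pairs. Between 14 and 20 weeks it ended the calls of Serpinb1a, Cybb, Prkcb, Orai2, Itpr2, Rock1, Myh9, Itgb2, Clec12a and Map2k1. Between 14 and 26 weeks S100a8 and Pik3cg were among the 4 genes still called. Between 20 and 26 weeks it ended those of Slpi, Cybb, Cyba, Ncf1, H3f3a and Rock1.

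**Figure D3:**
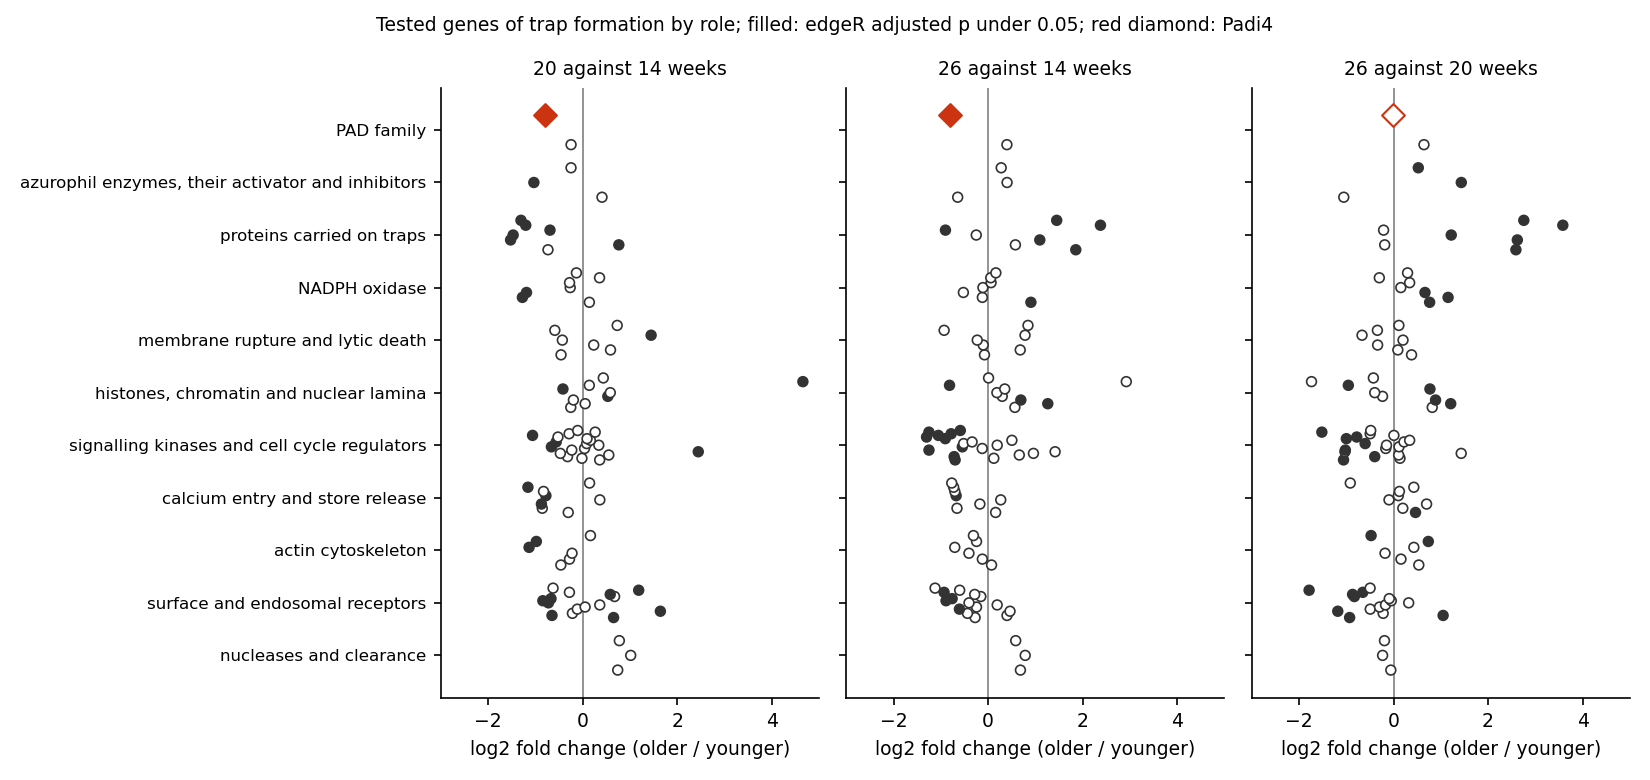
Log2 fold change (horizontal axes, older over younger) of each tested gene of the trap formation list, in rows by role, for the 3 pairs of ages. Filled points had edgeR adjusted p under 0.05, and the red diamond is Padi4, at -0.80, -0.80 and -0.01. Proteins carried on traps lie mostly to the left at 20 weeks and to the right at 26 weeks, while the called signalling genes lie to the left at 26 weeks.

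Elastase and myeloperoxidase, which move from azurophil granules to the nucleus and help PAD4 open chromatin, had almost no transcripts. Elane had 8 counts in 2 of 18 libraries, Mpo 9 counts in 3, Ctsg 35 counts in 2 and Prtn3 119 counts in 8. None of these 4 passed the filter. Serpinb1a, whose product inhibits those proteases and is known to restrain trap release, was well expressed. It fell from 1110 ± 234 CPM at 14 weeks to 543 ± 261 CPM at 20 weeks (log2 -1.03 ± 0.26, edgeR adjusted p = 0.0153) and stood at 1470 ± 292 CPM at 26 weeks, higher than at 20 weeks (1.43 ± 0.26, edgeR adjusted p = 0.00124). Of the 3 tested genes of this role, Serpinb1a fell and 0 rose to 20 weeks, 0 were called between 14 and 26 weeks, and 2 rose from 20 to 26 weeks. The other of these was the antiprotease gene Slpi (0.52 ± 0.15), a call lost in 3 of the 18 fits without 1 library (adjusted p up to 0.0628, without replicate 1 of 26 weeks). At 26 weeks Serpinb1a was not called against 14 weeks (0.40 ± 0.26, edgeR adjusted p = 0.397), where Padi4 was lower.

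Proteins known to decorate traps moved most. Of 7 tested genes 5 fell and 1 rose between 14 and 20 weeks (median log2 change -1.20). Between 20 and 26 weeks 5 rose and 0 fell (median 2.59). Against 14 weeks 4 were higher and 1 lower at 26 weeks (median 1.09). Camp, the cathelicidin gene, was measured at 2870 ± 829, 1730 ± 955 and 10400 ± 5790 CPM at the 3 ages. The calprotectin gene S100a9 stood at 10300 ± 1300, 4180 ± 1660 and 28300 ± 17500 CPM and was called in all 3 pairs, as was the lipocalin gene Lcn2 (12700 ± 1800, 4400 ± 1530 and 27000 ± 10500 CPM). S100a8, its calprotectin partner (4720 ± 488, 2050 ± 747 and 24500 ± 18000 CPM), was called in all 3 as well, but its fall to 20 weeks (edgeR adjusted p = 0.0493) was lost in 13 of the 18 fits without 1 library and kept under 4 of 8 other settings. Over the 18 libraries r with Padi4 was 0.01 for S100a9, -0.07 for Camp and 0.10 for Lcn2, against 0.94 for Fermt3. Mean levels of these cargo genes were highest at 26 weeks and that of Padi4 at 14 weeks. S100a8 and S100a9 also belonged to the neutrophil markers above.

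The NADPH oxidase makes the reactive oxygen that starts one route to trap release. Of its 7 tested genes 2, Cybb and Ncf1, fell between 14 and 20 weeks and 3, these and Cyba, rose between 20 and 26 weeks. Between 14 and 26 weeks 1, Cyba, rose and 0 fell. Ncf1, the p47phox gene, was measured at 1910 ± 301, 839 ± 257 and 1330 ± 284 CPM, and Cybb, the catalytic subunit gene, at 3300 ± 554, 1360 ± 509 and 3030 ± 644 CPM. Rac2, the regulatory GTPase gene, stood at 5070 ± 516, 4630 ± 483 and 5680 ± 669 CPM and was not called in any pair. At 26 weeks Cybb was not called against 14 weeks (log2 -0.12 ± 0.21, edgeR adjusted p = 0.813), where Padi4 was lower.

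Among 7 genes of membrane rupture and lytic death, 1 rose between 14 and 20 weeks and 0 genes were called in the other pairs of ages. That gene was Ninj1, whose product breaks up the plasma membrane of dying cells, at 201 ± 81.2 and 549 ± 151 CPM (log2 1.45 ± 0.32, edgeR adjusted p = 0.00605). Gsdmd, which encodes the pore former gasdermin D, stood at 95.3 ± 11, 112 ± 56 and 88.7 ± 17.5 CPM. Its highest 20 week value, 224 CPM, came from replicate 1, the library with the highest Padi4 of that age. Casp1 (57.4 ± 7.96, 41.8 ± 18.9 and 54.4 ± 15.2 CPM) and Casp4 (20.8 ± 3.74, 31.3 ± 16.6 and 33.3 ± 11.2 CPM), which encode caspases that cleave gasdermin D, were not called.

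Chromatin genes include the targets of PAD4. Of 9 tested genes of histones, chromatin and the lamina, 2 rose and 1 fell to 20 weeks, 2 rose and 1 fell from 14 to 26 weeks, and 3 rose and 1 fell from 20 to 26 weeks. The histone H3.3 gene H3f3a was measured at 353 ± 22.3, 308 ± 72.1 and 571 ± 159 CPM, and was higher at 26 than at 14 weeks (log2 0.69 ± 0.18, edgeR adjusted p = 0.0181). The histone H2A.Z gene H2afz rose from 126 ± 22.4 and 130 ± 29.8 CPM to 301 ± 96.4 CPM at 26 weeks (1.26 ± 0.20 against 14 weeks, edgeR adjusted p = 0.00154). Lbr, the lamin B receptor gene needed for the lobed neutrophil nucleus, fell from 1260 ± 81.4 and 1390 ± 383 CPM to 716 ± 233 CPM (-0.82 ± 0.20 against 14 weeks, edgeR adjusted p = 0.0138). Against 14 weeks the histone genes H3f3b, H1f0 and Hist1h1c, named after their values were seen, were not called at 26 weeks (edgeR adjusted p = 0.237, 0.724 and 0.729). With the gene length correction the calls of H3f3a, H2afz and Lbr in that pair were lost as well (adjusted p = 0.22, 0.0525 and 0.208).

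Signalling genes fell mostly at 26 weeks. Of 19 tested kinase and regulator genes 3 fell and 1 rose between 14 and 20 weeks, 10 fell and 0 rose between 14 and 26 weeks (median log2 change -0.55), and 7 fell and 0 rose between 20 and 26 weeks. Prkcb, a protein kinase C gene of the phorbol ester route to traps, followed the course of Padi4. It was measured at 465 ± 61.7, 223 ± 43.8 and 224 ± 52.2 CPM, with log2 changes of -1.06 ± 0.16 and -1.05 ± 0.16 from 14 weeks (edgeR adjusted p = 0.000641 and 0.00149). Akt1, a kinase gene of cell survival signalling, stood at 295 ± 21.5, 378 ± 81.8 and 181 ± 47.8 CPM. It was lower at 26 weeks than at 14 weeks (-0.70 ± 0.16, edgeR adjusted p = 0.0104) and 20 weeks (-1.06 ± 0.17, edgeR adjusted p = 0.000456), with no call between 14 and 20 weeks (edgeR adjusted p = 0.193). Pik3cg, the phosphoinositide 3-kinase gamma gene, was lower at 26 weeks than at 14 (-1.30 ± 0.22) and 20 weeks (-0.78 ± 0.22), the second of these calls lost in 3 of the 18 fits without 1 library (adjusted p up to 0.0573, without replicate 1 of 26 weeks).

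Calcium switches PAD4 on. Of 8 tested genes of calcium entry and release 3 fell and 0 rose between 14 and 20 weeks, and 1, Orai2, fell and 0 rose between 14 and 26 weeks. Orai2 fell by 0.78 ± 0.22 on the log2 scale to 20 weeks (edgeR adjusted p = 0.0249) and by 0.68 ± 0.22 to 26 weeks (0.0473). These calls were lost in 2 and in 13 of the 18 fits without 1 library (adjusted p up to 0.0801 and 0.147, both without replicate 1 of 14 weeks), and the second was kept under 2 of 8 other settings. Stim2, a calcium sensor gene of the endoplasmic reticulum, was measured at 89.1 ± 14.3, 39.8 ± 25.1 and 53.8 ± 17.8 CPM, and Itpr2, a store release channel gene, at 91.3 ± 27.7, 49.9 ± 23.5 and 81 ± 15 CPM. Their falls to 20 weeks (edgeR adjusted p = 0.0331 and 0.0375) were lost in 5 and 10 of the 18 fits (adjusted p up to 0.0752 and 0.0883, without replicates 4 and 3 of 14 weeks).

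Of 6 tested actin cytoskeleton genes 2 fell to 20 weeks, Rock1 (log2 -0.98 ± 0.16, edgeR adjusted p = 0.000702) and the myosin gene Myh9 (-1.14 ± 0.30, edgeR adjusted p = 0.0178), and 0 rose. Between 14 and 26 weeks 0 were called, and between 20 and 26 weeks Rock1 rose and Was, the Wiskott-Aldrich syndrome protein gene, fell. Myh9 reached 504 CPM in replicate 4 of 26 weeks, against 252 CPM in the next highest library of that age.

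Receptors that can start trap release went both ways. Of 15 tested genes 4 rose and 4 fell between 14 and 20 weeks, 0 rose and 4 fell between 14 and 26 weeks, and 1 rose and 6 fell between 20 and 26 weeks. Itgb2, the beta chain gene of the integrin Mac-1, ran with Padi4, at 3300 ± 275, 2070 ± 269 and 1940 ± 343 CPM (log2 -0.67 ± 0.12 and -0.76 ± 0.12 from 14 weeks, edgeR adjusted p = 0.0021 and 0.00154). The protein of its partner gene Itgam, CD11b, belonged to the sorting gate. Tlr4, the endotoxin receptor gene, was measured at 67.7 ± 13.4, 154 ± 50.2 and 44.5 ± 19.5 CPM and the complement receptor gene C5ar1 at 2180 ± 302, 3420 ± 543 and 1800 ± 358 CPM, both highest at 20 weeks. Clec12a, which encodes an inhibitory lectin receptor, had the reverse course, at 356 ± 44.6, 227 ± 68.7 and 470 ± 78.1 CPM. Its fall to 20 weeks was lost in 3 of the 18 fits without 1 library (edgeR adjusted p up to 0.0557, without replicate 4 of 20 weeks).

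Trap DNA is cleared by nucleases, mostly made by other cells. Trex1 (21.6 ± 5.24, 37 ± 16.1 and 32.3 ± 8.99 CPM), Dnase1l1 (8.94 ± 4.17, 15 ± 7.19 and 14.3 ± 4.33 CPM) and Dnase2a (1.81 ± 1.94, 3.69 ± 4.67 and 3.14 ± 1.51 CPM) were the 3 tested genes of this role, and 0 were called in any pair of ages. C1qa and C1qb had 2 and 3 counts in all.

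Padi4 kept a lower level at 20 and 26 weeks than at 14 weeks in each of the 18 fits without 1 library and the 9 other settings run, but the edgeR call did not hold under all of them. Under the 9 settings other than leaving out a library, the adjusted p of Padi4 (edgeR, DESeq2 or limma-voom) ran from 0.0105 to 0.194 for 20 against 14 weeks. For 26 against 14 weeks it ran from 0.00216 to 0.15. In each comparison the call was kept in 4 of the 9 settings and lost in 5.

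**Figure D4:**
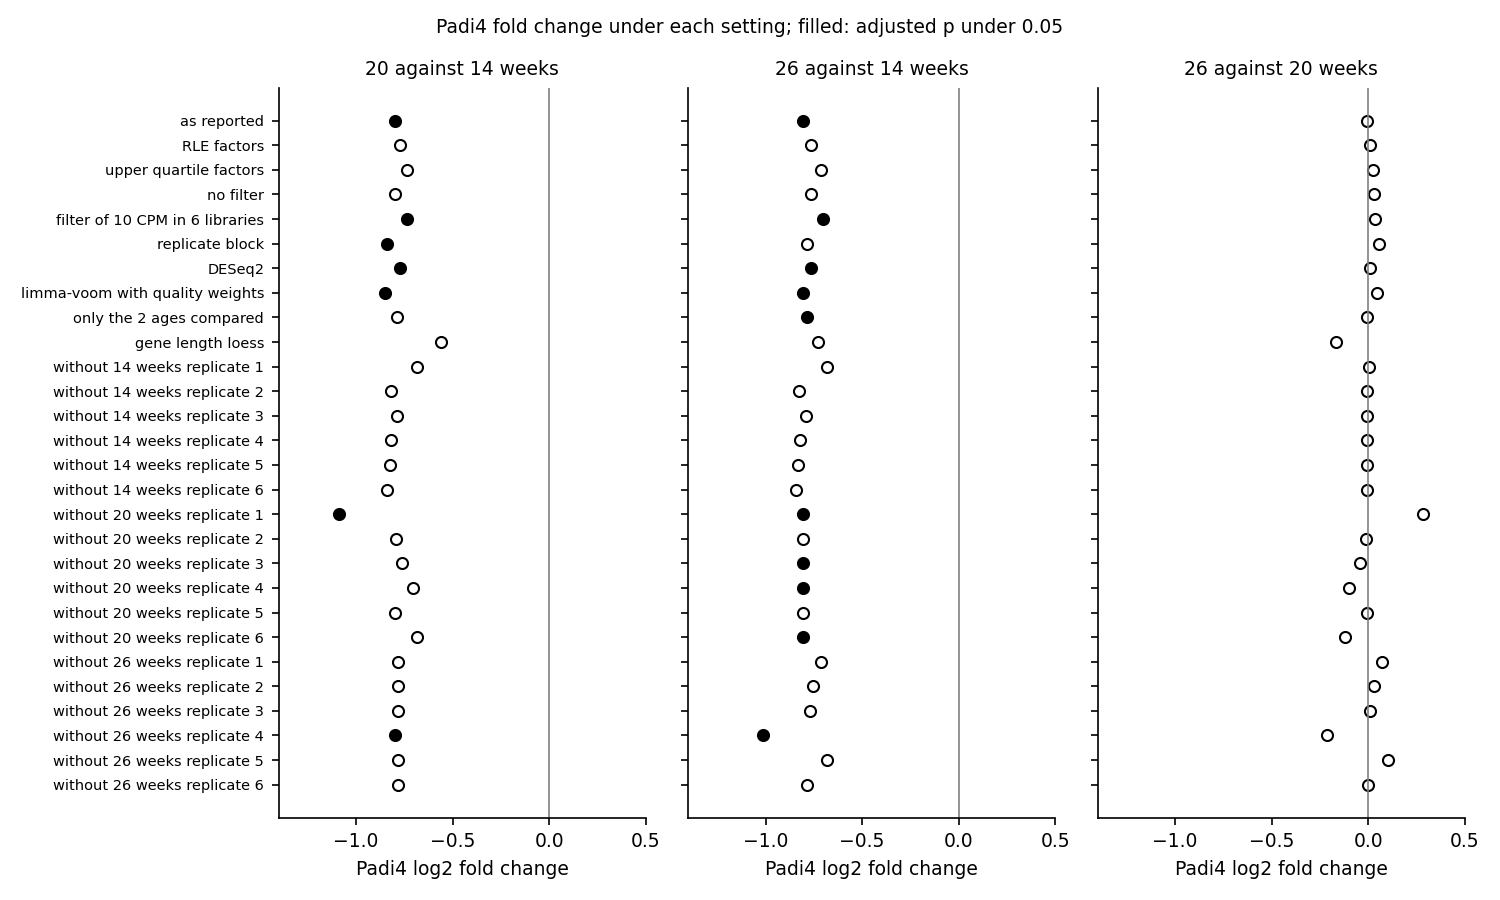
Padi4 log2 fold change (horizontal axes) for the 3 pairs of ages under each setting (rows), as fitted in edgeR unless the row names another tool. Filled points had adjusted p under 0.05. Points of both comparisons with 14 weeks lie between -1.09 and -0.56, and those of 26 against 20 weeks between -0.21 and 0.28.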

How the data were processed

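The authors deposited raw read counts per gene symbol, 1 column per mouse. The submitters' processing notes name GRCm38.p4, DESeq, DESeq2 (1.12.3), HTSeq (0.6.1), STAR (2.4.2a) and Trimmomatic (0.32). No source used here states the role of each tool, the annotation or the strand setting. Per the labels' protocols, libraries came from 1 ng of cDNA (Nextera XT, single-end reads of 100 nt).

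Ages and replicate numbers came from sample titles and columns from descriptions. Quasi-likelihood F tests (robust) of edgeR 4.0.16, in R 4.3.3, were run after filterByExpr and TMM scaling in 1 fit of 18 libraries with age as the only term, with a Benjamini-Hochberg adjusted p under 0.05 over 10104 genes. The fit was tested on simulated data. The SE is the fold change over the square root of F. Log2 CPM used a prior count of 2. Levels per kilobase used GENCODE M21 exon lengths (of 17941 symbols 16809 matched directly and 457 by a synonym). Exact permutation tests (two-sided) covered every arrangement of 6 against 6 mice, with a smallest p of 0.00216. Libraries of an age differed by more than counting error (mean chi-square per gene 26.1 to 182). Counts lack molecular identifiers.

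Some listed genes are counted but not reported here by name. Members and gene lists were chosen with earlier results of these data known. The text names Padi4, Padi2, the other PAD genes, at most 4 tested genes of each role (smallest p of any change with age), Gsdmd, Cybb, Serpinb1a, Elane and Mpo, genes of the list called in all 3 pairs, genes most like or opposite to Padi4 and genome neighbours. Gsdmd and Myh9 per library, and genes with too few counts, were named after their values were seen. Alternatives were RLE and upper quartile factors, DESeq2 1.42.0, limma-voom 3.58.1 with quality weights, other filters, a fit of the 2 ages alone, a block for replicate number, a loess correction for gene length, a prior count of 0.5, and each library left out. The correlations and the Padi4 spread without 2 libraries were added after seeing the data. Padi2 failed the filter, so its planned edgeR test was replaced by the permutation test and an unfiltered fit.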

Additional observations from a re-analysis of the deposited data

Results flagged for a closer look

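Some libraries stood apart from the other 5 of their age, with a gap to the nearest value above 0.625 of the range of the 6. Of 126 groups looked at (42 genes at 3 ages) 11 held such a value. Chance gives about 1 in 20 only for independent values from a normal distribution. The genes here share libraries, and some had mostly 0 counts, so the count of 11 cannot be set against that rate. Padi4 was high in replicate 1 of 20 weeks (981 CPM, others 301 to 514 CPM) and in replicate 4 of 26 weeks (853 CPM, others 325 to 522 CPM). In the same replicate 1, Gsdmd was high (224 CPM, others 75.7 to 105 CPM) and C5ar1 low (2400 CPM, others 3420 to 4000 CPM). In the same replicate 4, Orai2 (92.6 CPM, others 49.2 to 57.2 CPM) and Myh9 (504 CPM, others 158 to 252 CPM) were high. Orai2 was also high in replicate 1 of 14 weeks (130 CPM, others 81.9 to 96.7 CPM), the library with the highest Padi4 of all (1180 CPM). Padi2 had counts in replicate 3 of 26 weeks alone (0.907 CPM) and Padi1 stood out in replicate 1 of 14 weeks (1.56 CPM). Casp4 was high in replicate 3 of 20 weeks (63.9 CPM, others 19.9 to 32 CPM) and Dnase2a in replicate 6 of 20 weeks (12.3 CPM, others 0 to 4.36 CPM).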

How the results depend on the processing

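Padi4 stayed lower than at 14 weeks under every setting run, while its edgeR call lay near the threshold. For 20 against 14 weeks the call was lost with RLE factors (-0.774, adjusted p = 0.0505), upper quartile factors (-0.738, 0.0582), no filter (-0.799, 0.0623), only the 2 ages compared (-0.787, 0.061) and the gene length correction (-0.561, 0.194). For 26 against 14 weeks it was lost with RLE (-0.766, 0.0515), upper quartile (-0.715, 0.0648), no filter (-0.766, 0.0759), the replicate block (-0.787, 0.0648) and the length correction (-0.727, 0.15). With the length correction the p of any change was 0.0261 (adjusted 0.103). The cause was not tested.

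The change of Padi4 between 20 and 26 weeks, near 0 and never called, changed sign with RLE (0.00836), upper quartile (0.0231), no filter (0.0326), the stricter filter (0.0347), the replicate block (0.0547), DESeq2 (0.00832) and limma-voom (0.0443). Leaving out 1 library gave -1.09 to -0.684 (20 against 14 weeks), -1.01 to -0.681 (26 against 14) and -0.212 to 0.284 (26 against 20) by edgeR, and p of any change from 0.000106 to 0.0238, with the adjusted p (0.00184 to 0.0924) above 0.05 in 6 of 18. It gave differences in log2 CPM from -0.12 to 0.25 for 26 against 20 weeks. For 26 against 14 weeks it left 652 to 1544 genes called, the lowest counts being 652, 733 and 726 without replicates 1, 2 and 6 of 26 weeks, beside 1111.

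DESeq2 called 1563 genes for 20 against 14 weeks, beside 1030 by edgeR. For 26 against 14 weeks limma-voom called 2679 genes, a fit of only the 2 ages 1710 and the length correction 198, beside 1111, and for 26 against 20 weeks limma-voom called 2716 beside 1617. The length correction left 14 genes of the trap list called for 20 against 14 weeks (31 without it) and 4 for 26 against 14 weeks (25), where limma-voom called 41. With it the median log2 change of all genes was 0.253 between 14 and 20 weeks (-0.02 without it) and -0.239 between 20 and 26 weeks (0.05 without it). With limma-voom these medians were -0.121 and 0.197, and with the replicate block -0.107 and 0.168.

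Libraries with the same replicate number did not deviate together (median correlation 0.00762 over 18 pairs, 1 of them over 0.1). No source used here states whether the numbers pair the mice. The replicate block ended the Padi4 call at 26 against 14 weeks, as given above, and kept the one at 20 weeks. The Padi2 comparisons were not called under any setting. Padi2 had 0 counts in 11 of 18 libraries, which leaves levels under the limit that 0 counts allow (0.22 to 0.629 CPM) unresolved.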
